A study of Mus musculus with 9 samples.

Results

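Claudins are the membrane proteins that form the strands of tight junctions. Here 8 claudin genes (Cldn1, Cldn3, Cldn4, Cldn5, Cldn7, Cldn10, Cldn11 and Cldn15) were followed in mouse ovaries, through every probe that carries one of these symbols. They have 14 of the 45281 probes on the array, and 8 of its 19057 gene symbols. Of the 14 probes, 10 were above background (detection p under 0.05) on at least 2 arrays and entered the tests, and they stand for 7 of the 8 genes. Cldn7 did not enter.

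Ovaries of C57BL/6 mice were compared in 3 groups: wild type (WT), a model of premature ovarian failure (POF), and recipients of transplanted spermatogonial stem cells (SSCTR), the germline stem cells of the testis. The labels number 3 replicates in each group, but the columns of replicate 1 are computed from those of replicates 2 and 3, so each group has 2 measured arrays (replicates 2 and 3). The labels do not state how the failure was brought about, the age of the mice, whether recipients had the failure before the transplant, or whether replicates are separate animals. A p-value then measures only the spread between these arrays, which may be technical.

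A claudin spans the membrane several times, and its extracellular loops meet those of a claudin on the next cell. The mixture of claudins in a cell sheet sets which ions and solutes can pass between the cells. Claudin-1, claudin-3, claudin-4 and claudin-7 are mostly found in epithelia, where they tighten the seal. Claudin-10 and claudin-15 form channels for ions between cells. Claudin-5 is the main claudin of blood vessel endothelium, and claudin-11 closes the barrier between Sertoli cells in the testis and insulates myelin. In women, claudin-3 and claudin-4 are known for being high in many ovarian carcinomas.

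The arrays had 16040 to 18041 probes above background, with the 2 SSCTR arrays the lowest. Arrays of a group correlated at 0.988 to 0.989 over the 13872 tested features, which are not independent replicates, and POF stood apart from WT (0.963) and SSCTR (0.960). All 10 oocyte markers checked were above background on every array. Of 11 granulosa cell markers with a probe, 10 were above background in each group, and Amh, a hormone of growing follicles, was not above background in any group.

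The comparison of POF with WT asked which claudins differ in the failing ovary. Cldn3, Cldn15, Cldn10 and Cldn1 were higher in POF, by 4.63-fold, 3.76-fold, 2.19-fold and 1.87-fold on their brightest probes. With no background correction their log2 changes were 1.04, 1.40, 0.96 and 0.37, so the order of sizes depends on that step. Cldn4, Cldn5 and Cldn11 did not pass the threshold, an adjusted p under 0.05 over all features. Thus 4 of the 7 tested claudin genes were higher in POF and 0 were lower (5 and 1 at an unadjusted p under 0.05 in limma), where 6.98% of the 13872 features were higher and 4.96% were lower. The median log2 change of the 7 was 0.91, and that of all features was -0.03. Fewer cells of a type and less RNA per cell cannot be told apart in such whole-ovary RNA.

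**Figure D1:**
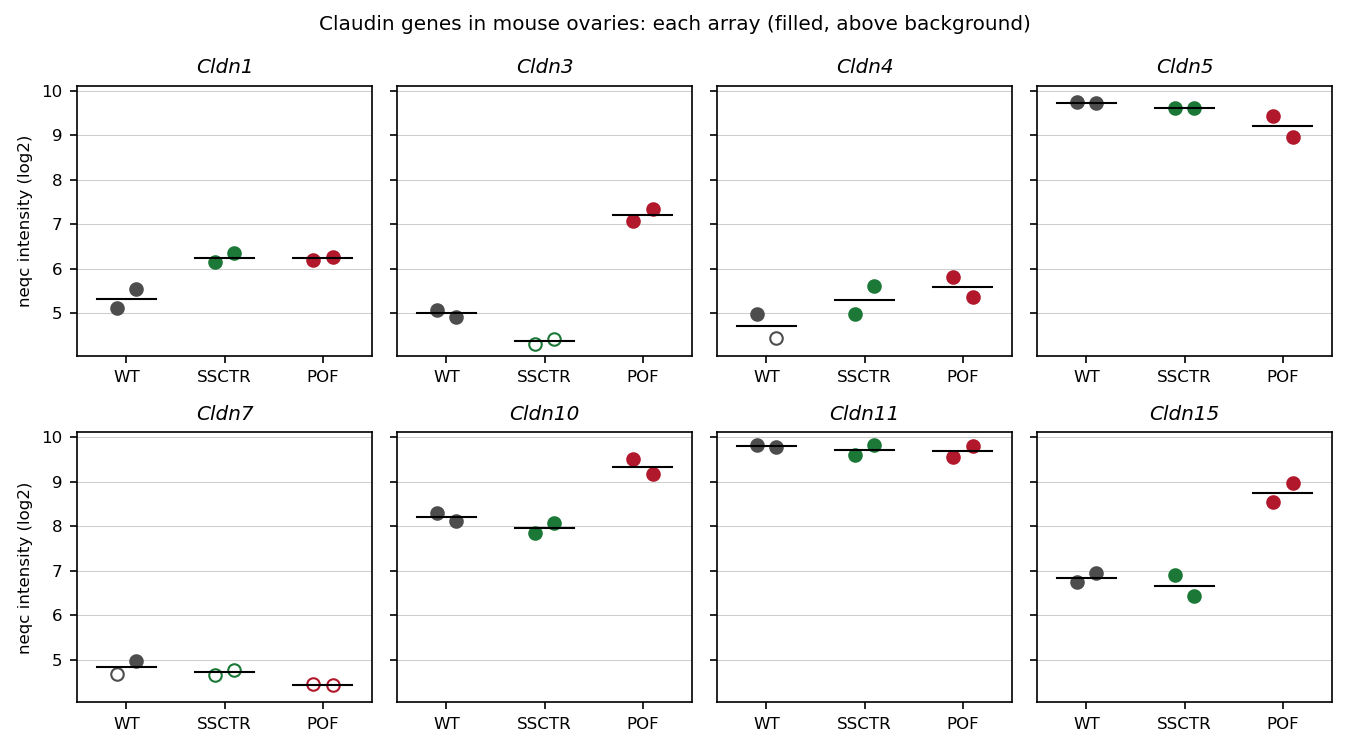
Log2 intensity (vertical axis) of each claudin gene on its brightest probe, for the 2 arrays of WT, SSCTR and POF. Filled points were above background, open points were not, and bars are group means; Cldn3, Cldn10 and Cldn15 are high on both POF arrays, with POF means of 7.21, 9.34 and 8.76.

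Because Cldn3, Cldn15 and Cldn10 were higher in POF than in both other groups, the starts of these genes are printed here, with that of Cldn4. Cldn4 lies next to Cldn3 on chromosome 5, with 0 protein-coding genes between them in RefSeq. The windows are RefSeq promoters of build GRCm38.p6, each of 300 bases, and all 8 genes had at least 1. Capitals mark the E-box CACCTG, bound by repressors of the Snail and ZEB families, and the GC box GGGCGG, bound by Sp factors, on either strand:
Cldn3 (chr5:134985964-134986263, plus strand): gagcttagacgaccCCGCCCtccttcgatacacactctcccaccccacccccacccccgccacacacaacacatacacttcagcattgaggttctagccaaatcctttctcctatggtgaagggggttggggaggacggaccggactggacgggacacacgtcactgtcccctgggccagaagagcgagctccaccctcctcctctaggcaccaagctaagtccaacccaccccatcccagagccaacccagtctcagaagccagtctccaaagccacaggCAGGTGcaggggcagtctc
Cldn4 (chr5:134946885-134947184, minus strand): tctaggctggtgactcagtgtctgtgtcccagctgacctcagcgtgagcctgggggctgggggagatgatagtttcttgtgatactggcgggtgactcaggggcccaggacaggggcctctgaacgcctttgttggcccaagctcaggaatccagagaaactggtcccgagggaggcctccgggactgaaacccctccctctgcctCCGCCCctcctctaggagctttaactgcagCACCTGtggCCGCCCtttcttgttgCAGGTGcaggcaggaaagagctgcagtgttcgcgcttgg
Cldn15 (chr5:136967619-136967918, plus strand): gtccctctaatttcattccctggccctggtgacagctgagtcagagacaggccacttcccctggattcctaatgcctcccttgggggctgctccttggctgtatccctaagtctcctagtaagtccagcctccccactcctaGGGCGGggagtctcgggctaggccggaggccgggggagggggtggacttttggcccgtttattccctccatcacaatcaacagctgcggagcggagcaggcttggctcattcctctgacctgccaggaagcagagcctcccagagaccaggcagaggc
Cldn10, upstream start (chr14:118787621-118787920, plus strand): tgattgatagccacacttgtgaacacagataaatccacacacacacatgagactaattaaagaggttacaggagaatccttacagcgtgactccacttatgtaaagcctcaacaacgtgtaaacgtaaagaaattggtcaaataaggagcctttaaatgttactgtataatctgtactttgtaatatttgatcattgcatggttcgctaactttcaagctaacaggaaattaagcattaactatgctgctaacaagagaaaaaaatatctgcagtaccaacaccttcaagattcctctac
Cldn10, downstream start (chr14:118854700-118854999, plus strand): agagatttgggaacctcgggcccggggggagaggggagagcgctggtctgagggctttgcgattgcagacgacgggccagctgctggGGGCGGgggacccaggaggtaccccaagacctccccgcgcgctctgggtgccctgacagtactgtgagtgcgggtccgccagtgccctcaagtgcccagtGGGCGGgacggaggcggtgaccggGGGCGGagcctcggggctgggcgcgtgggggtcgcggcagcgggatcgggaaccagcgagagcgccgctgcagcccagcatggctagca

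Cldn10 has 2 annotated starts with unlike windows, of 36% and 72% G and C. The GC box stood in 8 of the 10 claudin windows, once or more for each of the 8 genes. Its match for Cldn10 lay in the downstream window. It stands in 35.7% of all 32851 RefSeq windows of this length. The E-box CACCTG was in 3 claudin windows, those of Cldn3, Cldn4 and Cldn7 (20.2% of all windows). The grainyhead-like motif AACCNGTT was in that of Cldn5 alone (2.09% of all). The AP-2 motif GCCNNNGGC was in those of Cldn3 and Cldn15 (16.6% of all). Both strands were searched, and in the Cldn3 window the AP-2 match and the E-box share 1 base. A match describes letters in these windows and shows no binding.

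Among the sealing claudins, Cldn3 (probe ILMN_2634167) had the clearest separation. Its log2 values were 5.08 and 4.93 for WT, 4.32 and 4.43 for SSCTR, and 7.07 and 7.35 for POF. Both POF arrays lay above all others, and the SSCTR arrays were not above background. As deposited, its intensities were 214 and 242 in POF against 113 and 109 in WT. The change in POF against WT was 2.21 ± 0.18 (SE, n = 2, adjusted p = 0.000185). It passed with no background correction too, at 1.04 on that scale.

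Cldn4 (probe ILMN_1223949), which lies beside Cldn3, was dim and varied within groups. It read 4.98 and 4.44 in WT (the second not above background), 4.98 and 5.60 in SSCTR, and 5.83 and 5.36 in POF. The POF arrays lay above the WT arrays, and SSCTR overlapped with both. As 1 of 2 WT arrays was not above background, a bound on the fold was taken on the background-corrected scale. That bound was 1.68-fold (0.75 on the log2 scale), and it leaves out the spread between arrays. The interval of the log2 difference began lower (0.25 to 1.52). The fit did not pass (adjusted p = 0.0763), so no minimum fold is established. With a prior variance that follows the mean level the adjusted p was 0.0443. With no background correction the log2 difference was 0.31 (adjusted p = 0.112). It was 0.30 in the authors' normalized table (adjusted p = 0.114) and 0.62 without WT replicate 3 (adjusted p = 0.319), against 0.89 in the fit. Cldn7 (probe ILMN_2595477), a claudin of the same kind of epithelia, was above background on 1 array, WT replicate 3 (4.98), and lay between 4.43 and 4.78 on the other 5 arrays.

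Cldn1 (probe ILMN_2870295), a sealing claudin also known for the barrier of the skin, followed another pattern. It read 5.13 and 5.54 in WT, 6.15 and 6.35 in SSCTR, and 6.21 and 6.27 in POF. Both groups other than WT lay above it and overlapped with each other. The change in POF against WT was 0.91 ± 0.20 (SE, n = 2, adjusted p = 0.0191), and 0.37 with no background correction. It was no longer past the threshold when WT replicate 2 was left out (0.70, adjusted p = 0.122), nor without POF replicate 2 (0.94, adjusted p = 0.0856) or POF replicate 3 (0.88, adjusted p = 0.105). The gene is dim, with WT intensities of 114 and 126 where the median over all probes was 99.8.

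Cldn15, a channel-forming claudin best known from the intestine, has 3 probes. The brightest (ILMN_2793817) read 6.75 and 6.94 in WT, 6.91 and 6.43 in SSCTR, and 8.54 and 8.98 in POF. Again both POF arrays stood above the others, while WT and SSCTR overlapped. The change in POF against WT was 1.91 ± 0.23 (SE, n = 2, adjusted p = 0.00131). The second probe (ILMN_2674906) was higher in POF too, at 6.28 and 6.64 against 4.88 and 5.42 in WT (1.31 ± 0.23, adjusted p = 0.00805 when every probe was tested on its own). The third (ILMN_1245622) was not above background on any array.

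Cldn10, the other channel-forming claudin, has 5 probes, of which 3 entered. Its brightest probe (ILMN_2515816) read 8.31 and 8.12 in WT, 7.86 and 8.07 in SSCTR, and 9.51 and 9.17 in POF, with both POF arrays above the rest. The change was 1.13 ± 0.19 (SE, n = 2, adjusted p = 0.00691). This call did not hold when WT replicate 3 (1.04, adjusted p = 0.0513) or POF replicate 2 (0.96, adjusted p = 0.0551) was left out.

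The Cldn10 probes gave changes of unequal size. Probe ILMN_1214954 read 6.15 and 6.35 in WT, 5.91 and 6.40 in SSCTR, and 8.23 and 7.89 in POF. Its POF arrays stood clear of the rest, and its change against WT was 1.81 ± 0.22 (adjusted p = 0.00155 over all probes). Probe ILMN_2723576 read 7.26 and 7.33 in WT, 7.03 and 6.52 in SSCTR, and 7.70 and 7.49 in POF, a change of 0.31 ± 0.21 (adjusted p = 0.431). It is annotated to the same RefSeq transcript as the brightest probe, and ILMN_1214954 to another transcript of Cldn10. Probe ILMN_2610656, annotated to the same transcript as ILMN_1214954, was above background on 0 arrays, so it does not repeat that change. The last probe, ILMN_1257561, was above background on 1 array. Whether the starts printed above are used unequally was not tested.

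**Figure D2:**
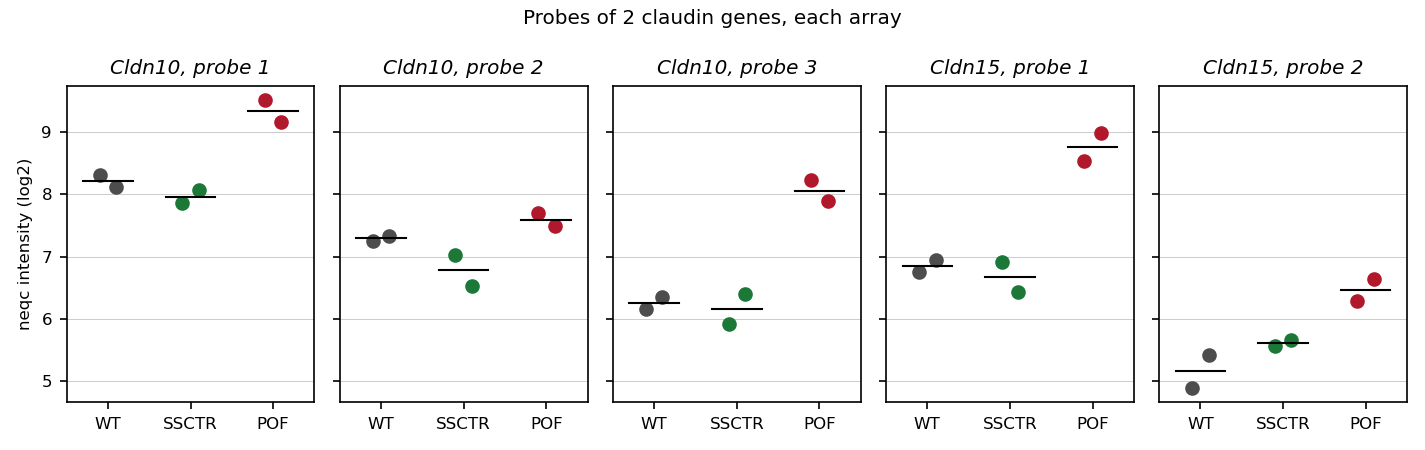
Log2 intensity (vertical axis) of the 3 Cldn10 probes and 2 Cldn15 probes that entered, ordered by mean level, for the 2 arrays of each group (points) with group means (bars). The POF arrays are the highest on every probe shown, but the step from WT to POF runs from 0.31 to 1.81 among Cldn10 probes.

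Cldn5 (probe ILMN_1241293), the endothelial claudin, read 9.74 and 9.72 in WT, 9.62 and 9.61 in SSCTR, and 9.44 and 8.97 in POF. The POF arrays were the lowest and the farthest apart from each other. The difference between POF and WT was -0.53 (95% interval -0.97 to -0.09, adjusted p = 0.12). It passed with no background correction (-0.47, adjusted p = 0.0267), in the authors' normalized table (adjusted p = 0.0263), with an offset of 50 (adjusted p = 0.0444) and with the prior that follows the level (adjusted p = 0.0281). Without POF replicate 3 it was -0.30 (adjusted p = 0.442), and without POF replicate 2 it was -0.76 (adjusted p = 0.0788).

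Cldn11 (probe ILMN_1246139), the claudin of Sertoli cells and myelin, was bright. It read 9.83 and 9.79 in WT, 9.61 and 9.83 in SSCTR, and 9.57 and 9.80 in POF. All groups overlapped, and the difference between POF and WT was -0.13 (95% interval -0.53 to 0.28, adjusted p = 0.706).

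The comparison of SSCTR with POF asked how ovaries of transplant recipients differ from the failure model. It shares the POF arrays with the comparison above, so a gene high in POF alone differs in both. On the background-corrected scale Cldn3 was at least 5.14-fold lower in SSCTR, where it was not above background (-2.84 ± 0.18 on the log2 scale, SE, n = 2, adjusted p = 3.91e-05). With no background correction its log2 change was -1.27, so the bound does not hold on that scale. Cldn15 was 4.26-fold lower (-2.09 ± 0.23, adjusted p = 0.000648) and Cldn10 was 2.60-fold lower (-1.38 ± 0.19, adjusted p = 0.00224). With no background correction the log2 changes of Cldn15 and Cldn10 were -1.50 and -1.15. The other probes of these genes that entered were lower as well, by 0.85 on the log2 scale for Cldn15, and by 1.91 and 0.82 for Cldn10. In all, 3 of 7 claudins were lower in SSCTR and 0 were higher (the same counts at an unadjusted p under 0.05 in limma), where 7.25% of the features were lower and 5.33% were higher. Their median log2 change was -0.31, against 0.03 for all features.

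Cldn1 differed between SSCTR and POF by 0.01 (95% interval -0.44 to 0.45, adjusted p = 0.983). Cldn4 (-0.31, interval -0.94 to 0.33), Cldn5 (0.41, interval -0.03 to 0.85, but 0.18 without POF replicate 3 and 0.64 without POF replicate 2) and Cldn11 (0.03, interval -0.37 to 0.44) did not pass either. With 2 arrays a group these intervals are wide.

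**Figure D3:**
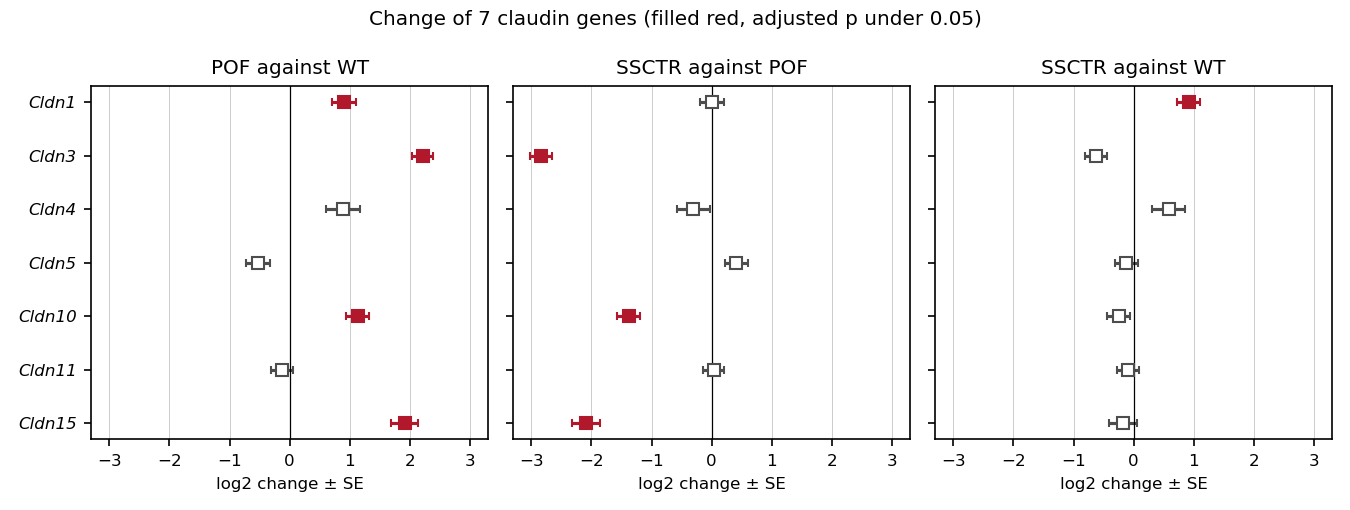
Log2 change (horizontal axis) with its SE for the 7 tested claudin genes in each comparison, on their brightest probes with 2 arrays a group. Filled red squares have an adjusted p under 0.05: 4 genes in POF against WT, 3 in SSCTR against POF and 1 in SSCTR against WT.

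The comparison of SSCTR with WT asked what differs between recipient and wild-type ovaries. Cldn1 was the 1 of 7 to pass, at 0.92 ± 0.20 (SE, n = 2, adjusted p = 0.0434), a 1.89-fold higher level in SSCTR (0.38 with no background correction, adjusted p = 0.0568). At an unadjusted p under 0.05 in limma 1 claudin was higher and 1 was lower. Of all features 1.81% were higher and 1.5% were lower in SSCTR. That call ended under 11 of 18 alternatives, among them leaving out any of the 6 arrays, with log2 changes over those 6 from 0.71 (without WT replicate 2, adjusted p = 0.246) to 1.12 (without WT replicate 3, adjusted p = 0.0707). Without SSCTR replicate 2 the adjusted p was 0.121, and without SSCTR replicate 3 it was 0.20. Without POF replicate 2 or 3, which enter only through the shared spread, it was 0.0747 or 0.0746.

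Cldn3 was at -0.63 in SSCTR against WT (95% interval -1.03 to -0.22, adjusted p = 0.108), with both SSCTR arrays below both WT arrays. As Cldn3 was not above background in SSCTR, its level there was at least 1.11-fold lower than in WT. Cldn15 (-0.18, interval -0.70 to 0.34) and Cldn10 (-0.25, interval -0.69 to 0.19) did not pass. The second Cldn15 probe (ILMN_2674906) went the other way, at 0.46 (adjusted p = 0.37 when every probe was tested on its own). Its SSCTR arrays (5.56 and 5.65) lay above its WT arrays (4.88 and 5.42). The other Cldn10 probes that entered were at -0.10 and -0.51. Cldn4 was at 0.58 (interval -0.05 to 1.22), and its SSCTR and WT arrays overlapped. Cldn5 was at -0.12 (interval -0.56 to 0.32) and Cldn11 at -0.09 (interval -0.50 to 0.31). The median of the 7 was -0.12, against -0.01 for all features.

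Of 22 further claudins and claudin-domain genes, 15 have a probe and 7 entered. In POF against WT 3 of the 7 were higher and 0 were lower, also at an unadjusted p under 0.05 in limma. Of all features 6.98% were higher and 4.96% were lower at the adjusted threshold. The shares given above for each comparison stand beside the later list counts too. On their brightest probes, Cldn23 and Cldn2 were above background on the POF arrays alone. They thus entered the tests through the group where they were high, and the count of 3 of 7 depends on that entry. Cldn23 (at least 1.85-fold, adjusted p = 0.00144) and Cldn2 (at least 1.81-fold, adjusted p = 0.00334) were not above background in WT, and Cldn34c1 was higher by 1.14 ± 0.17 (SE, n = 2, adjusted p = 0.00408). Cldn2, whose protein forms a channel for cations and water, has a second probe at 0.70. Against POF, SSCTR was lower in Cldn23 (at least 1.70-fold, adjusted p = 0.00144) and Cldn2 (at least 1.66-fold, adjusted p = 0.00369), both not above background in SSCTR. It was higher in Cldn18, a claudin of lung and stomach, which read 5.89 ± 0.01 in SSCTR and 4.88 ± 0.15 in POF (SD, n = 2, adjusted p = 0.0118). The median of the 7 was -0.26 in POF against WT, -0.21 in SSCTR against POF and 0.06 in SSCTR against WT, where 0 of them passed (2 higher and 1 lower at an unadjusted p under 0.05 in limma).

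Claudin strands work with other membrane proteins and with scaffolds that tie them to actin. Of 31 such partner genes 29 have a probe and 20 entered. In POF against WT 5 were higher and 1 was lower, with a median of 0.47. Lsr, the angulin of three-cell contacts, was higher by 1.95 ± 0.19 (SE, n = 2, adjusted p = 0.000517), and its relative Ildr2 by 1.18 ± 0.17 (adjusted p = 0.00341). The scaffold genes Amotl2 (1.29) and Mpdz (1.02) were also higher, the latter on 1 probe, with a second at -0.10. Occludin, Ocln, was at least 1.58-fold higher and was above background on 1 of 2 WT arrays (adjusted p = 0.0388). Prkcz, a kinase of cell polarity, was lower by 0.72 on the log2 scale on its brightest probe (adjusted p = 0.0266), with other probes at 1.11 and -0.91.

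In SSCTR against POF 6 partner genes were lower and 0 were higher (7 and 2 at an unadjusted p under 0.05 in limma), with a median of -0.10. Ildr2 (-1.53), Lsr (-1.45) and the junction adhesion molecule F11r (-0.91, adjusted p = 0.0223) were among them. Ocln was at least 1.51-fold lower and not above background in SSCTR. Tjp1 and Tjp3, scaffolds that bind claudin tails, were above background in neither SSCTR nor POF, and Cgn (cingulin) was above background in no group. In SSCTR against WT Amotl2 alone passed (1.18 ± 0.25, adjusted p = 0.0410), with a list median of 0.05. Amotl2 thus passed against WT in both other groups, as Cldn1 did, and both comparisons share the WT arrays.

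Regulators of the epithelial state mostly did not pass. Of 18 genes 13 entered, with 1 higher and 1 lower in POF against WT, and the reverse directions for the same 2 genes in SSCTR against POF. Klf5, an epithelial transcription factor, was at 7.30 ± 0.44 in POF, 6.10 ± 0.24 in WT and 5.79 ± 0.03 in SSCTR (SD, n = 2). Esrp1, an epithelial splicing factor, was lower in POF (5.15 ± 0.42) than in WT (6.83 ± 0.02) or SSCTR (6.55 ± 0.31). The E-box repressors did not pass: in POF against WT Snai1 was at -0.70, Snai2 at 0.07, Zeb1 at 0.38 and Zeb2 at 0.50. Grhl2, which activates Cldn4 in epithelia, was above background in no group. The list's median was 0.07, 0.11 and -0.01 in the 3 comparisons.

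Some markers of epithelial cells moved with Cldn3, Cldn10 and Cldn15, and others did not. Of 16 simple epithelium genes 14 have a probe and 12 entered, with 6 higher and 0 lower in POF against WT (8 and 2 at an unadjusted p under 0.05 in limma), and a median of 0.86. Among them were Rab25 (2.53 ± 0.19, second probe at 1.00) and Krt7 (2.41 ± 0.24). So were Spint1 (2.25 ± 0.20, second probe at 0.60) and Krt19 (1.84 ± 0.17, each with its SE, n = 2). The other 6 of the 12 did not pass, among them Epcam (-0.54, adjusted p = 0.0642) and Cdh1 (-0.53, adjusted p = 0.0906), which encode adhesion proteins that define epithelia. The summed level of the 14 genes, on the linear scale after background correction, was 988 to 1024 in WT, 846 to 868 in SSCTR and 2275 to 2499 in POF. In SSCTR against POF 7 were lower and 1, Cdh1, was higher (1.01 ± 0.18, adjusted p = 0.00689), with a median of -1.0. Epcam was at 0.23 there (adjusted p = 0.401). In SSCTR against WT 0 passed (1 higher and 2 lower at an unadjusted p under 0.05 in limma, median -0.29). St14 and Spint2 were not above background in WT, nor in SSCTR, where Pkp3, Rab25, Cdh16 and Ap1m2 were not either. St14, higher in POF against WT and lower in SSCTR against POF, entered through the POF arrays alone.

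Oviduct epithelium genes were higher in POF against WT at 6 of 10 tested, and lower in SSCTR against POF at 7 (medians 0.99 and -1.19). Their summed level over 13 genes was 658 to 714 in WT, 556 to 570 in SSCTR and 3732 to 4402 in POF. Ovgp1, the oviduct glycoprotein, at 11.25 ± 0.13 in POF (SD, n = 2), gave most of that sum, while its second probe changed by 0.38. Foxj1 and Pax8, defining transcription factors of oviduct cells, were above background in no group. Surface epithelium and mesothelium genes were higher in POF against WT at 3 of 8 tested and lower in SSCTR against POF at 4 (medians 0.69 and -0.70). The uroplakin genes Upk1b (3.15 ± 0.30, SE) and Upk3b (1.25 ± 0.20) were among those higher in POF. Their summed level over 9 genes was 4359 to 4812 in WT, 4152 to 4348 in SSCTR and 5912 to 6839 in POF, and Lrrn4 and Gpm6a were above background in POF only. Upk3b, at 11.6 in POF on the log2 scale, gave the largest part of that POF sum. The part that the number of these cells has in the claudin levels was not tested.

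Beside Cldn5, 15 endothelial genes were all above background in every group. In POF against WT 2 were higher, 1 was lower and 12 did not pass, with a median of 0.25 where Cldn5 was at -0.53. Plvap, a gene of vessel pores, was higher by 1.34 ± 0.20 (SE, n = 2), and Eng was lower by 0.80 on the log2 scale. The summed endothelial level was 6544 to 6626 in WT, 6982 to 7175 in SSCTR and 7188 to 7935 in POF. Beside Cldn11, Sertoli cell genes were higher in POF against WT at 3 of 10 tested and in SSCTR against WT at 4, with 1 lower in the latter. Cst9 was at least 6.09-fold higher in SSCTR than in WT, where it was not above background, and Trf was lower (-1.26, adjusted p = 0.00988). In SSCTR against POF 4 Sertoli genes were higher and 2 were lower, Rhox5 (-1.54) and Trf (-2.17). Sox9 and Dhh passed in no comparison. The summed Sertoli level was 3239 to 3373 in WT, 5133 to 5235 in SSCTR and 3820 to 4439 in POF, and Tsx was above background in no group.

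Granulosa cell genes, with 4 of 10 lower in POF against WT and 7 of 10 higher in SSCTR against POF, went the other way from Cldn3, Cldn10 and Cldn15 (medians -0.49 and 0.87). Macrophage genes, higher at 6 of 11 in POF against WT and lower at 6 in SSCTR against POF, went the same way. Their summed level was 11216 to 14486 in POF, 4572 to 4933 in WT and 3943 to 4544 in SSCTR. Lyz2, at 12.81 ± 0.45 in POF (SD, n = 2), gave the largest part of that POF sum. The summed granulosa level was 21311 to 22348 in POF, 24154 to 25920 in WT and 24960 to 26530 in SSCTR. Inha, which passed in no comparison, gave the largest part of the granulosa sum. Oocyte genes were lower at 9 of 10 in POF against WT and higher at 10 in SSCTR against POF, and theca genes were lower at 2 of 7 and higher at 1. The part of these cells in the claudin values was not tested.

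**Figure D4:**
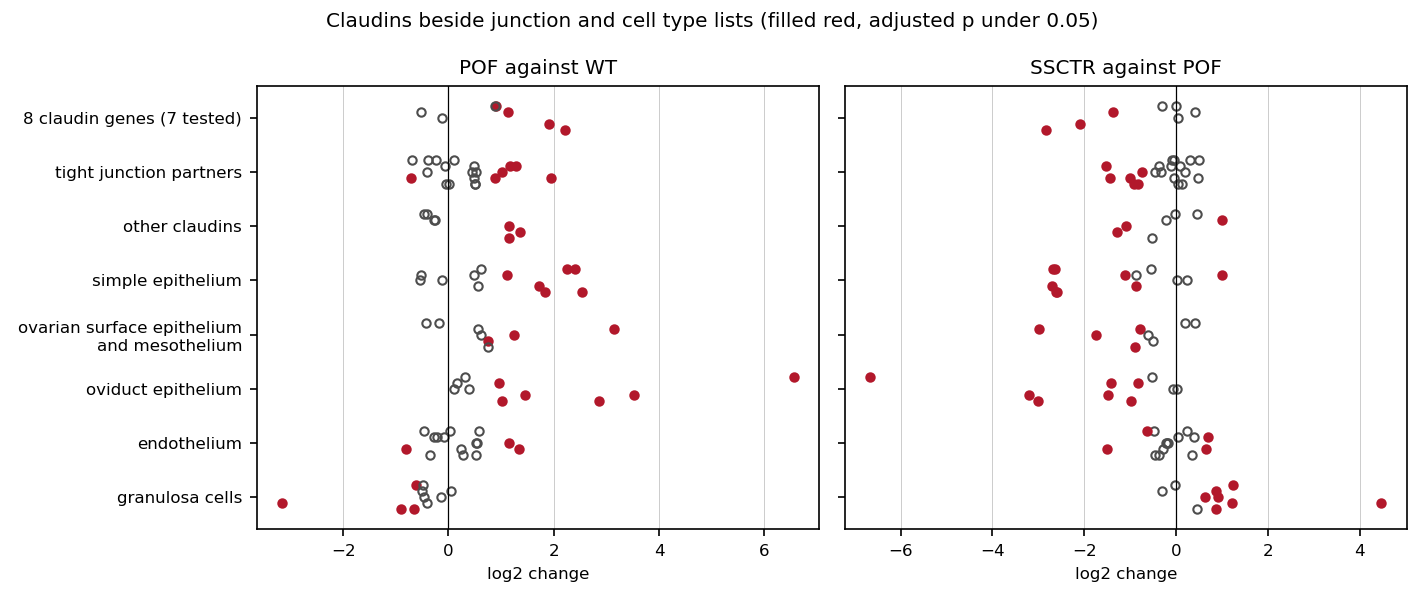
Log2 change (horizontal axis) of each tested gene in the claudin set and 7 lists, in POF against WT and in SSCTR against POF. Filled red points have an adjusted p under 0.05; the epithelial lists lie mostly above 0 on the left and below 0 on the right, with medians of 0.69 to 0.99 and -1.19 to -0.70.

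For each claudin that passed, the genes with the closest profiles over the 6 arrays were sought among named genes, other claudins left out. Closeness was the root mean square difference of centred log2 values. The 3 closest genes were taken for each claudin, so their differences lie below the median over all features by selection. The Cldn3 values in SSCTR were not above background. For Cldn3 the closest genes were Slc39a4 (0.14, above background on 4 arrays), Sectm1b (0.15) and Krt19 (0.16), where the median over all features was 1.25. Krt19 encodes a keratin of simple epithelia, and Slc39a4 a zinc transporter. For Cldn15 they were Slc13a4 (0.11), Gsta3 (0.11) and Ppl (0.13), a desmosome-linked plakin, against a median of 1.00. Slc13a4 was above background on 2 arrays only. For Cldn10 they were Ang (0.08), the defensin Defb19 (0.08) and Brinp2 (0.09, above background on 3 arrays), against a median of 0.66.

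The profile of Cldn1 was closest to Pank3 (0.08), a kinase of coenzyme A synthesis, Spink4 (0.09) and Ggcx (0.11), the vitamin K-dependent carboxylase, against a median of 0.52. These 3 genes differed from WT by 0.76 to 0.86 in POF and by 0.75 to 0.90 in SSCTR. Likeness over 6 arrays of 3 groups is a description of these arrays.

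**Figure D5:**
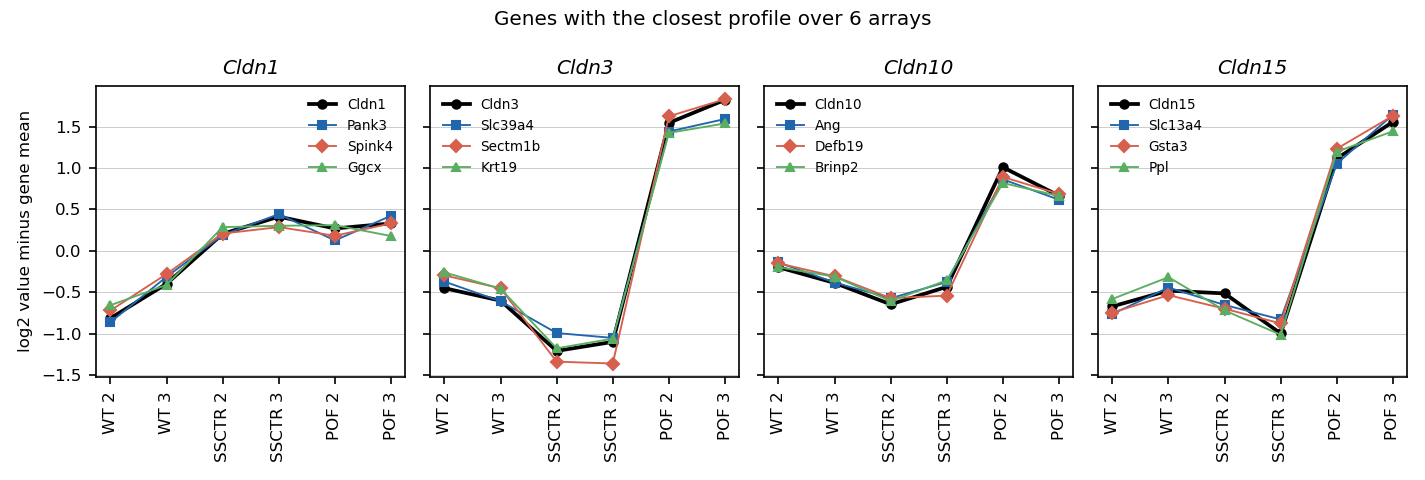
Log2 value minus the gene's own mean (vertical axis) on each of the 6 arrays for Cldn1, Cldn3, Cldn10 and Cldn15 (black) and the 3 genes closest to each (colours), with lines joining the arrays of a gene. Cldn3, Cldn10 and Cldn15 step up on the POF arrays, and Cldn1 is up on SSCTR and POF arrays alike (6.25 and 6.24 before centring).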

How the data were processed

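Total RNA of ovaries was labelled with biotin and hybridised to Illumina arrays, per the labels' protocols. GenomeStudio is the 1 tool named in the submitters' processing notes; its version and a genome build are not given in the sources used here. The deposited table holds signal intensity values on a linear scale and a detection p-value per probe, per the file headers. Its name calls it non-normalized, but the sorted signals of the 6 arrays used differ by at most 0.541%, so they had been brought to 1 distribution. A second deposited table holds the authors' normalized intensity values. The replicate 1 columns were left out: each is the mean of replicates 2 and 3 times 1 of 6 (WT), 17 (SSCTR) or 9 (POF) factors, and its deposited detection score reaches 1.13.

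Intensities were background-corrected, quantile-normalised and turned to log2 with neqc of limma 3.58.1 (R 4.3.3, offset 16). Probes with a detection p under 0.05 on at least 2 arrays entered (19394). A probe above background in 1 group alone thus entered through the group where it was high. The brightest probe stood for a gene, giving 13872 features, 11053 of them named genes. All 3 groups were fitted in 1 limma model across all features, with Benjamini-Hochberg adjustment over all of them (prior degrees of freedom 5.64, residual 3). "At least" marks a fold against a group not above background on 1 or both arrays. For each dim array it takes the higher of the probe's value and the lowest among detected probes. Such a fold applies to the background-corrected scale only, and the fold can be smaller without that correction, as for Cldn3. It leaves out the spread between arrays and is not a confidence limit. Confidence intervals are for 1 gene, without adjustment. The number of arrays limits the precision. Deviations of same-numbered replicates correlated at -0.0171, -0.0628 and -0.00259 between groups, and samples were fitted as unpaired. With 2 arrays a group these values cannot show whether same-numbered replicates were handled together. The fit was tested on simulated data. Members and the 12 gene lists were chosen with earlier results of these data known. All claudin members are named. Genes named from a list are among those past the threshold with the largest changes (at most 4 in a comparison) or not above background. Not every gene that meets this rule is named, so the named genes are not a ranking by size. Epcam, Cdh1, Snai1, Snai2, Zeb1 and Zeb2, Ocln in POF against WT and Prkcz were added to that rule after their values were seen, as were Sox9, Dhh and Inha.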

Additional observations from a re-analysis of the deposited data

How the results depend on the processing

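Each of 7 claudins was refitted in 3 comparisons under 18 alternatives (372 refits, as some filters leave out a gene). Of these 337 kept direction and side of the threshold. Cldn3 and Cldn15 stayed past it in POF against WT and in SSCTR against POF wherever they were fitted, and Cldn10 did in SSCTR against POF. The claudin count in POF against WT, 4 as reported, was 2 to 4 without 1 array (2 without POF replicate 2), 5 without background correction, with an offset of 50 and with the authors' table, 6 with the trended prior and with all 9 columns, and 3 with the stricter detection filter. In SSCTR against POF, 3 as reported, it was 4 with all 9 columns and 2 with the stricter filter, which Cldn3 and Cldn4 did not enter. In SSCTR against WT it was 0 without background correction, with the authors' table, with no detection filter, with every probe on its own and with only the groups compared, 0 whichever 1 array was left out, and 3 with all 9 columns. Over all features the calls in POF against WT were 1656, but 4931 with all 9 columns and 607 to 1548 without 1 array. In SSCTR against POF they were 1745, but 4969 with all 9 columns and 735 to 1573 without 1 array. In SSCTR against WT they were 459, but 857 without background correction, 767 with an offset of 50, 856 with the authors' table, 817 with the trended prior, 3104 with all 9 columns and 121 to 343 without 1 array. With the stricter filter (9142 features) the split of calls turned, to 752 higher and 780 lower in POF against WT (968 and 688 as reported), and 771 higher and 707 lower in SSCTR against POF (739 and 1006). With all 9 columns it turned in all 3 comparisons, to 2393 and 2538, 2536 and 2433, and 1496 and 1608. Extra columns computed from others add no spread. Turned signs all belong to changes that did not pass. In SSCTR against POF they were Cldn1 (-0.0072 without quantile normalization, -0.095 to 0.112 without 1 array), Cldn4 (-0.620 to 0.0088 without 1 array) and Cldn11 (-0.080 to 0.148 without 1 array). In SSCTR against WT they were Cldn15 (0.139 with the mean of its probes, -0.421 to 0.0616 without 1 array) and Cldn11 (-0.204 to 0.0179 without 1 array). With a replicate block there were 1436, 1535 and 341 calls, and it changed no claudin call. The cause of the other moves was not tested. Signals near background limit Cldn1, Cldn4 and Cldn7, and also Cldn3 in WT and SSCTR. The size of the Cldn3 change in POF against WT depends on background correction (2.21 on the log2 scale, and 1.04 without it).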
